A study of Mus musculus with 6 samples.

Results

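The comparison described here set mouse embryonic fibroblasts that had been induced toward parvalbumin neurons and sorted for green fluorescence at 14 days (sorted PV-GFP) against the sample labelled mouse embryonic fibroblasts (MEF). It used 2 of the 6 arrays of the study, chosen by their labels, and all 22180 genes with a probe set naming that gene alone. Both samples came from PV-GFP transgenic mice of strain C57BL/6 at an embryo age of 13.5 days, and infection of the fibroblasts with adenovirus was the induction step. The labels name neither the factor that the virus carried nor the promoter of the transgene. The other arrays, given as context only, were unsorted induced cells at 3, 7 and 14 days and a sample labelled endogenous parvalbumin neurons, all with the same strain, genotype and embryo age in the labels. The labels give fibroblast culture and infection in identical words for every sample, including MEF and the one labelled endogenous. Each group was 1 array, hybridised with cRNA from 6 µg of total RNA, so the differences were not checked by replicates and no test was possible. The sorted cells, unlike MEF, are labelled both as induced and as sorted. Between these 2 arrays alone the steps cannot be told apart, and the levels in unsorted induced cells are given beside several of the leading genes.

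Parvalbumin neurons are fast-spiking inhibitory neurons that release GABA. They synthesise it with the glutamate decarboxylases Gad1 and Gad2, load it into vesicles through Slc32a1, and buffer calcium with parvalbumin (Pvalb). Embryonic fibroblasts are dividing connective tissue cells that secrete collagens, other matrix proteins and the proteases that cut them. The gene lists below follow the neuronal genes, the fibroblast programme, the cell cycle and the response to a virus.

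Values were log2 intensities as the authors deposited them. Where a gene had several probe sets, the one with the highest mean over the 6 arrays was used. Levels are given as deposited. Differences are sorted PV-GFP minus MEF, computed after raising any lower value to a floor of 5.01, which is the median over the non-control probe sets. A fold against a value under the floor is a lower bound, written "at least". Levels of different genes come from different probes and cannot be set against each other. Where 2 probe sets of a gene were above the floor on both arrays, which was so for 355 genes, their differences between the arrays scattered with a standard deviation of 0.50 per probe set. Of 34 such genes whose brighter probe set differed 2-fold, the other probe set had the same direction in 17 and was itself 2-fold different in 9. A 2-fold difference of a single probe set is therefore a weak observation here. Of the 50 genes taken for the size of their difference, a selection of which is described below, 45 had 1 probe set.

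Of the 22180 genes, 814 were at least 2-fold higher in sorted PV-GFP cells than in MEF (3.67%) and 364 were at least 2-fold lower (1.64%). At least 4-fold, 140 genes were higher (0.631%) and 50 were lower (0.225%). The floor hid part of the genome, since 8714 genes lay under it on both arrays. Among the 12600 genes whose mean over the 6 arrays was above the floor, 6.35% were 2-fold higher and 2.84% were 2-fold lower, with a median difference of 0.10. These 4 percentages at 2-fold are the background against which the counts of each list are to be read. All lists were chosen with earlier results of these data known, so their counts describe these arrays and are not independent support. The balance of the directions depended on how the arrays were scaled. Genes higher in sorted cells made up 69.1% of the 2-fold differences with the deposited values, 57.7% after quantile normalization, and 36.0% when each array was centred on its housekeeping genes, whose median was 8.76 in sorted PV-GFP cells and 8.45 in MEF. The housekeeping centring moved the median difference of the 12600 genes to -0.20. Of the 22 housekeeping genes, 2 were themselves 2-fold lower in sorted cells and 0 were higher, which limits this centring.

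**Figure D1:**
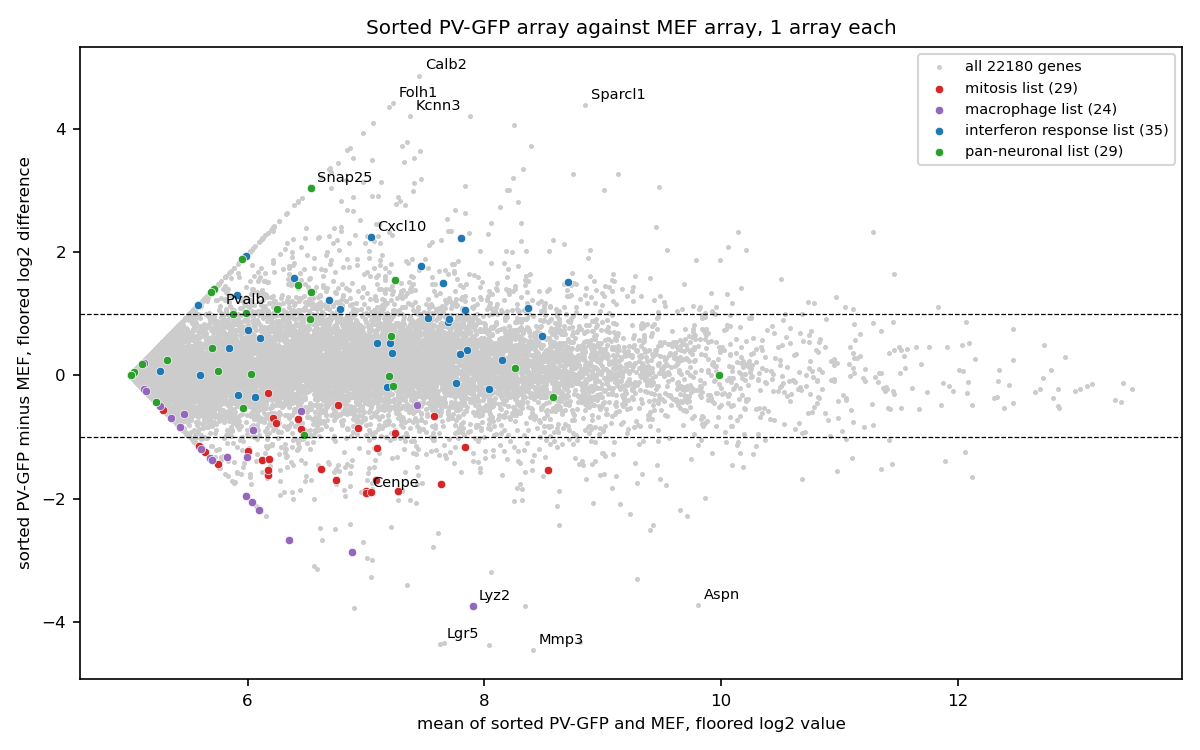
Log2 difference of each gene, sorted PV-GFP minus MEF (vertical axis), against the mean log2 value of both arrays (horizontal axis), after flooring, with dashed lines at a 2-fold difference, 4 gene lists in colour and some genes labelled. More points lie above the upper line (814 genes) than below the lower one (364 genes).

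The genes that define the intended cell type were at low levels. Pvalb itself had a log2 level of 6.29 in sorted PV-GFP cells and 5.23 in MEF. It was 2.09-fold higher, a difference of 1.06 that was 0.75 with housekeeping centring. The level of Pvalb in sorted cells was also the highest of the 6 arrays, with 5.76, 6.15 and 5.80 in induced cells at 3, 7 and 14 days and 5.48 on the array labelled endogenous. Gad1 had a level of 4.68 in sorted cells and 5.19 in MEF. Gad2 had 4.49 in sorted cells and 4.92 in MEF, and Slc32a1 had 4.46 in sorted cells and 4.82 in MEF. All 3 were thus under the floor in sorted cells. Lhx6, a transcription factor of the lineage that gives rise to parvalbumin interneurons, had 5.48 in sorted cells and 5.53 in MEF. Pvalb was above the floor in MEF too, as was Gad1. A level above or under the floor therefore does not by itself show whether a gene was expressed.

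Of 12 GABAergic genes on the array, 1 was 2-fold higher and 0 were lower. That gene was Abat, which degrades GABA, with a level of 7.93 in sorted cells and 5.79 in MEF (4.43-fold higher), and between 7.10 and 7.26 on the other 4 arrays. Its second probe set was under the floor on both arrays, and with the mean of all probe sets 0 of the 12 genes were 2-fold higher. Of 22 genes on the parvalbumin interneuron list, 3 were higher and 1 was lower, with a median difference of 0.00. Besides Pvalb the higher ones were Hapln4, a link protein of perineuronal nets, with 6.61 in sorted cells and 4.99 in MEF (at least 3.03-fold), and the transcriptional coactivator Ppargc1a, with 6.09 in sorted cells and 3.88 in MEF (at least 2.11-fold). The lower one was the potassium channel subunit Kcnab1, with 5.78 in sorted cells and 7.19 in MEF. None of these 4 stayed 2-fold different when the floor was raised to the 75th percentile of probe sets.

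Genes used to mark other classes of interneuron held some of the largest values of the comparison. Of 18 such genes, 6 were 2-fold higher and 2 were lower. Calb2 encodes calretinin, a calcium buffer like parvalbumin, and had a level of 9.88 in sorted cells and 2.44 in MEF, at least 29.2-fold higher and the largest difference of any named gene. Its levels on the other arrays were 8.09, 8.28 and 9.45 at 3, 7 and 14 days of induction and 8.67 on the array labelled endogenous. MEF thus stood apart from every other array. Npy1r, a receptor for neuropeptide Y, had 8.71 in sorted cells and 4.73 in MEF (at least 13.0-fold). Cck, which encodes the neuropeptide cholecystokinin, had 10.38 in sorted cells and 7.11 in MEF (9.65-fold). The homeobox gene Prox1 had 7.84 in sorted cells and 3.85 in MEF (at least 7.08-fold), and between 5.67 and 6.20 on the other arrays. Sorted cells were the highest of the 6 arrays for each of these 4 genes. The margin was small for Cck, which had 10.06 in induced cells at 3 days. Npy1r had 8.17 in induced cells at 3 days and 8.23 on the array labelled endogenous. The serotonin receptor subunit Htr3a (6.86 in sorted cells and 5.25 in MEF) and Nos1 (6.07 in sorted cells and 4.63 in MEF) completed the higher genes. Ndnf had 5.15 in sorted cells and 6.75 in MEF, and Chodl had 4.95 in sorted cells and 6.39 in MEF. The neuropeptide gene Sst was close on both arrays, with 5.33 in sorted cells and 5.53 in MEF.

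Of 29 pan-neuronal genes, 10 were 2-fold higher (34.5%) and 0 were lower, with a median difference of 0.19. Snap25, a membrane fusion protein of synaptic vesicle release, led them with a level of 8.05 in sorted cells and 4.44 in MEF (at least 8.24-fold), against 6.00 to 6.90 on the other arrays. The neuronal intermediate filament genes were higher together. Ina had 6.90 in sorted cells and 4.39 in MEF, Nefl 6.41 in sorted cells and 3.08 in MEF, Nefm 6.37 in sorted cells and 4.75 in MEF, and Nefh 7.22 in sorted cells and 5.86 in MEF. The tubulins Tubb3 (7.16 in sorted cells and 5.69 in MEF) and Tubb4a (8.02 in sorted cells and 6.47 in MEF) were 2.78-fold and 2.92-fold higher. Sorted cells were the highest of the 6 arrays for all 7 of these genes. Uchl1 and Elavl3 differed by 1.08 and 1.02, and Syt1 lay at the 2-fold threshold, with 6.38 in sorted cells and 5.38 in MEF. The count of 10 was 7 with quantile normalization or housekeeping centring and 2 with the higher floor, and both scalings added 1 lower gene. Other members were not higher. Map2 had 7.19 in sorted cells and 7.20 in MEF, Rbfox3 (NeuN) 5.78 in sorted cells and 5.71 in MEF, and Stmn2 7.14 in sorted cells and 7.31 in MEF. Dcx, a marker of migrating young neurons, was under the floor on both arrays, and Rest, a repressor of neuronal genes in other cells, had 6.92 in sorted cells and 6.90 in MEF.

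**Figure D2:**
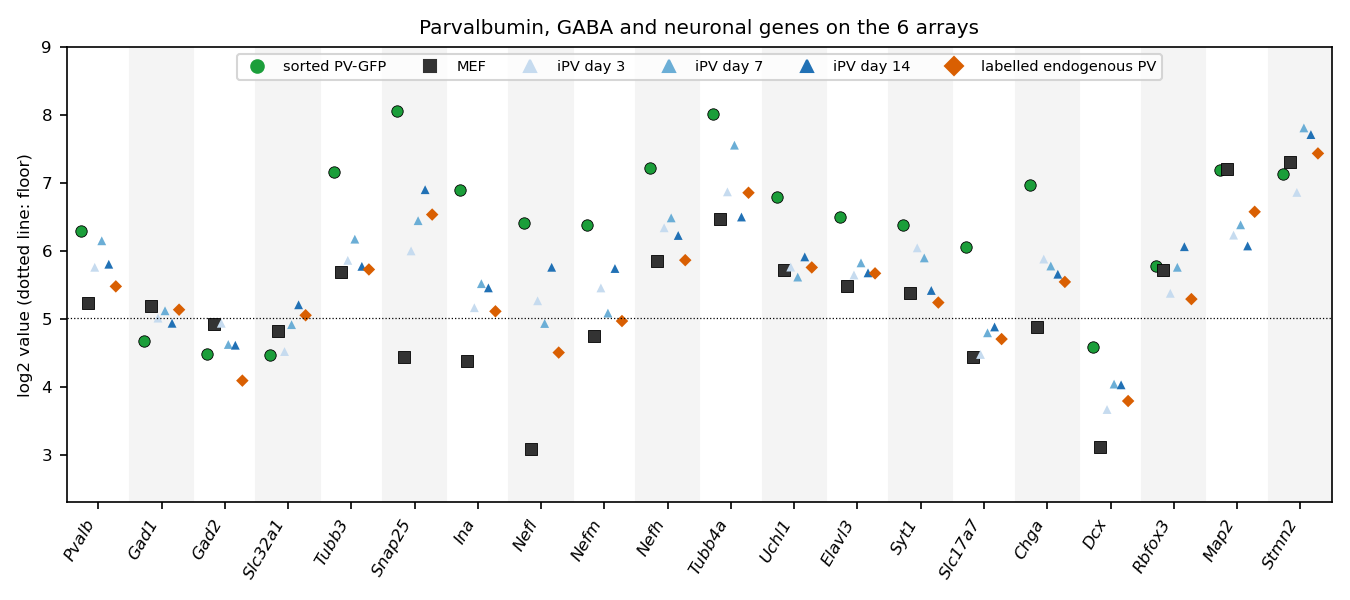
Log2 level (vertical axis, as deposited) of 20 parvalbumin, GABA and neuronal genes on each of the 6 arrays, 1 point per array, with the floor as a dotted line. Snap25 and Ina were higher in sorted PV-GFP cells than on the other 5 arrays, while Gad1, Gad2, Slc32a1 and Dcx lay under the floor in sorted cells.

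Counts of synaptic and excitability genes were smaller. Of 25 synaptic vesicle and active zone genes, 4 were 2-fold higher and 1 was lower (Sncg, 5.97 in sorted cells and 7.38 in MEF). Besides Snap25 and Syt1 the higher genes were Rab3a, a GTPase of vesicle release, with 7.62 in sorted cells and 6.25 in MEF, and Vamp2, the vesicle partner of Snap25, with 7.51 in sorted cells and 6.33 in MEF. Genes of the dense-core granule, which stores peptides, were higher in 3 of 12. Ptprn had 9.19 in sorted cells and 7.18 in MEF (4.04-fold), chromogranin A (Chga) had 6.98 in sorted cells and 4.88 in MEF (at least 3.90-fold), and chromogranin B (Chgb) had 6.35 in sorted cells and 3.83 in MEF (at least 2.53-fold). All 3 were highest in sorted cells among the 6 arrays.

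Of 28 voltage-gated channel genes, 4 were higher and 1 was lower, with 12 under the floor on both arrays. The sodium channel subunit Scn3b had 7.64 in sorted cells and 5.77 in MEF, and the T-type calcium channel Cacna1h had 8.02 in sorted cells and 6.23 in MEF, against 6.21 to 6.55 on the other arrays. The L-type calcium channel Cacna1c was lower, at 6.94 in sorted cells and 8.16 in MEF. Outside that list, the small-conductance calcium-activated potassium channel Kcnn3 had 9.47 in sorted cells and 5.26 in MEF (18.5-fold). Its levels on the other arrays, between 6.68 and 7.87, lay between those of MEF and sorted cells. Of 22 GABA and glutamate receptor genes, 2 were higher (9.09%, against 3.67% of all genes). These were Gabra3, a subunit of the GABA-A receptor, with 7.67 in sorted cells and 5.67 in MEF, and Gabbr1, of the GABA-B receptor, with 7.46 in sorted cells and 6.15 in MEF. Of 14 glutamatergic genes, 2 were higher, namely Camk2a (6.98 in sorted cells and 5.32 in MEF) and the vesicular glutamate transporter Slc17a7 (6.06 in sorted cells and 4.43 in MEF). The lists for catecholamine and serotonin neurons (12 genes) and for astrocytes (13 genes) held 0 genes 2-fold different in either direction.

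Proneural factors and the Notch pathway set the pace of neurogenesis, since Notch ligands on one cell hold back differentiation of its neighbour through Hes and Hey repressors. Of 35 genes on this list, 9 were 2-fold higher (25.7%) and 0 were lower, with a median of 0.41. In the Delta and Jagged families, whose members do not all act in that way, Dll3 had 7.40 in sorted cells and 4.88 in MEF (at least 5.22-fold). Its levels on the other arrays were 5.71 to 6.26. Dll1 (6.05 in sorted cells and 4.83 in MEF) and Jag2 (6.02 in sorted cells and 4.79 in MEF) were just past 2-fold. In the Hes and Hey families, Hes6, which promotes rather than holds back neurogenesis, had 8.07 in sorted cells and 5.92 in MEF (4.44-fold), and Heyl had 7.15 in sorted cells and 5.63 in MEF (2.88-fold). The Id proteins bind and block basic helix-loop-helix factors. Id2 had 9.72 in sorted cells and 6.70 in MEF (8.10-fold), Id3 had 9.68 in sorted cells and 7.48 in MEF (4.61-fold), and Id1 had 8.11 in sorted cells and 6.72 in MEF. Induced cells at 3 days had 9.76 for Id2, 9.33 for Id3 and 8.33 for Id1. The repressor Zbtb18 had 7.82 in sorted cells and 6.03 in MEF (3.47-fold), and 7.56 in induced cells at 3 days. For these 4 genes the array at 3 days thus stood nearer to sorted cells than to MEF.

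Basic helix-loop-helix factors bind E-boxes, and the Dll3 promoter, chosen after the values were seen, is shown because it holds the E-box CAGCTG close to the start site. The sequence is from RefSeq, build GRCm38.p6, at chr7:28301736-28302035 on the minus strand, from 250 bases before to 50 bases after the start, with the match in capitals beginning 7 bases before the start site.
Dll3: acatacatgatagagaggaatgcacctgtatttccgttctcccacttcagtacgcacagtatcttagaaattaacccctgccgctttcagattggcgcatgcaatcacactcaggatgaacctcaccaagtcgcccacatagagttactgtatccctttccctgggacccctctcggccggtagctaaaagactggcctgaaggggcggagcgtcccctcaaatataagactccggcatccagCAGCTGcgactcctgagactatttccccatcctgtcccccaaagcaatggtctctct
CAGCTG reads the same on both strands. It occurred in 12 of the 28 list genes with a promoter sequence (42.9%) and in 5 of the 7 that were 2-fold higher, and in 18.3% of all 27025 genes with one. A match is a description of the letters and not of binding.

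Retinoic acid patterns the embryo along its length, and its metabolism has its own enzymes, binding proteins and receptors. The list of such genes was drawn up after values of Lrat and Dhrs3 had been seen, so its counts are a description only. Of 27 genes, 7 were 2-fold higher (25.9%) and 1 was lower, with a median of 0.26. Lrat, which stores retinol as esters, had 9.37 in sorted cells and 4.18 in MEF (at least 20.6-fold). Dhrs3, which turns retinaldehyde back into retinol, had 10.76 in sorted cells and 7.49 in MEF (9.62-fold). Cyp26b1, which degrades retinoic acid, had 9.50 in sorted cells and 6.77 in MEF (6.67-fold). Each of these 3 was highest in sorted cells and lowest in MEF among the 6 arrays. Unsorted cells were close to sorted cells for Cyp26b1 and Dhrs3, with 9.44 and 10.33 at 14 days. For Lrat they reached 8.73 at 7 days. The retinoic acid receptor Rarb had 8.04 in sorted cells and 4.74 in MEF (at least 8.16-fold), and 7.23 to 8.43 on the other arrays. The binding protein Crabp2 had 9.74 in sorted cells and 7.61 in MEF (4.38-fold), whereas its relative Crabp1 was lower, with 8.29 in sorted cells and 9.93 in MEF. Stra6, the receptor that takes up retinol, had 6.49 in sorted cells and 5.15 in MEF.

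The Rarb promoter, also chosen after the values were seen, holds a pair of direct repeats GTTCA with 6 bases between them, the spacing of the retinoic acid response element for which this gene is known. The sequence is from RefSeq, build GRCm38.p6, at chr14:16575427-16575726 on the minus strand, with the match in capitals beginning 52 bases before the start site.
Rarb: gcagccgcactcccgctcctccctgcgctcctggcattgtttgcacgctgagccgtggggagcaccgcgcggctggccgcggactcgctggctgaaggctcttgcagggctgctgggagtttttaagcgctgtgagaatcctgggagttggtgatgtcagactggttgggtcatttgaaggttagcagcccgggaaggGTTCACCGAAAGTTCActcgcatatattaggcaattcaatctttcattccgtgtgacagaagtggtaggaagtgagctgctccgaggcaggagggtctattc
Searched on both strands, this motif occurred in 2 of the 22 genes of the retinoid list that had a promoter sequence, and in 24 of all 27025 genes with one (0.0888%).

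Hox genes, which record position along the body axis, were also higher as a group. Of 27 on the array, 9 were 2-fold higher (33.3%) and 0 were lower, with a median of 0.87, the highest of the 48 lists. Hoxa5 had 7.73 in sorted cells and 5.48 in MEF (4.77-fold), Hoxa6 had 7.84 in sorted cells and 6.35 in MEF, and Hoxc8 had 9.04 in sorted cells and 7.68 in MEF. The others were Hoxb4, Hoxb9, Hoxb5, Hoxc4, Hoxb6 and Hoxa2, with differences between 1.02 and 1.20. For Hoxb5 a second probe set gave 5.25 in sorted cells and 5.42 in MEF. With housekeeping centring 3 Hox genes remained past 2-fold in the higher direction, and the median was 0.56. Neighbouring Hox transcripts can overlap, so single members are uncertain.

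Guidance molecules steer axons. Of 35 genes, 6 were higher (17.1%) and 1 was lower, with a median of 0.50. Among the secreted ligands, Sema3e had 9.05 in sorted cells and 5.59 in MEF (11.0-fold) and Sema3c had 8.59 in sorted cells and 7.35 in MEF. Among the membrane-bound ligands and receptors, Sema6a had 9.18 in sorted cells and 6.88 in MEF, Plxna2 had 7.92 in sorted cells and 5.53 in MEF (5.25-fold), the netrin receptor Unc5c had 7.81 in sorted cells and 6.16 in MEF, and Robo1 had 9.85 in sorted cells and 8.56 in MEF. Plxna2, Unc5c and Robo1 had their highest levels in sorted cells among the 6 arrays. The semaphorin co-receptor Nrp2 was lower, with 8.10 in sorted cells and 9.44 in MEF.

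**Figure D3:**
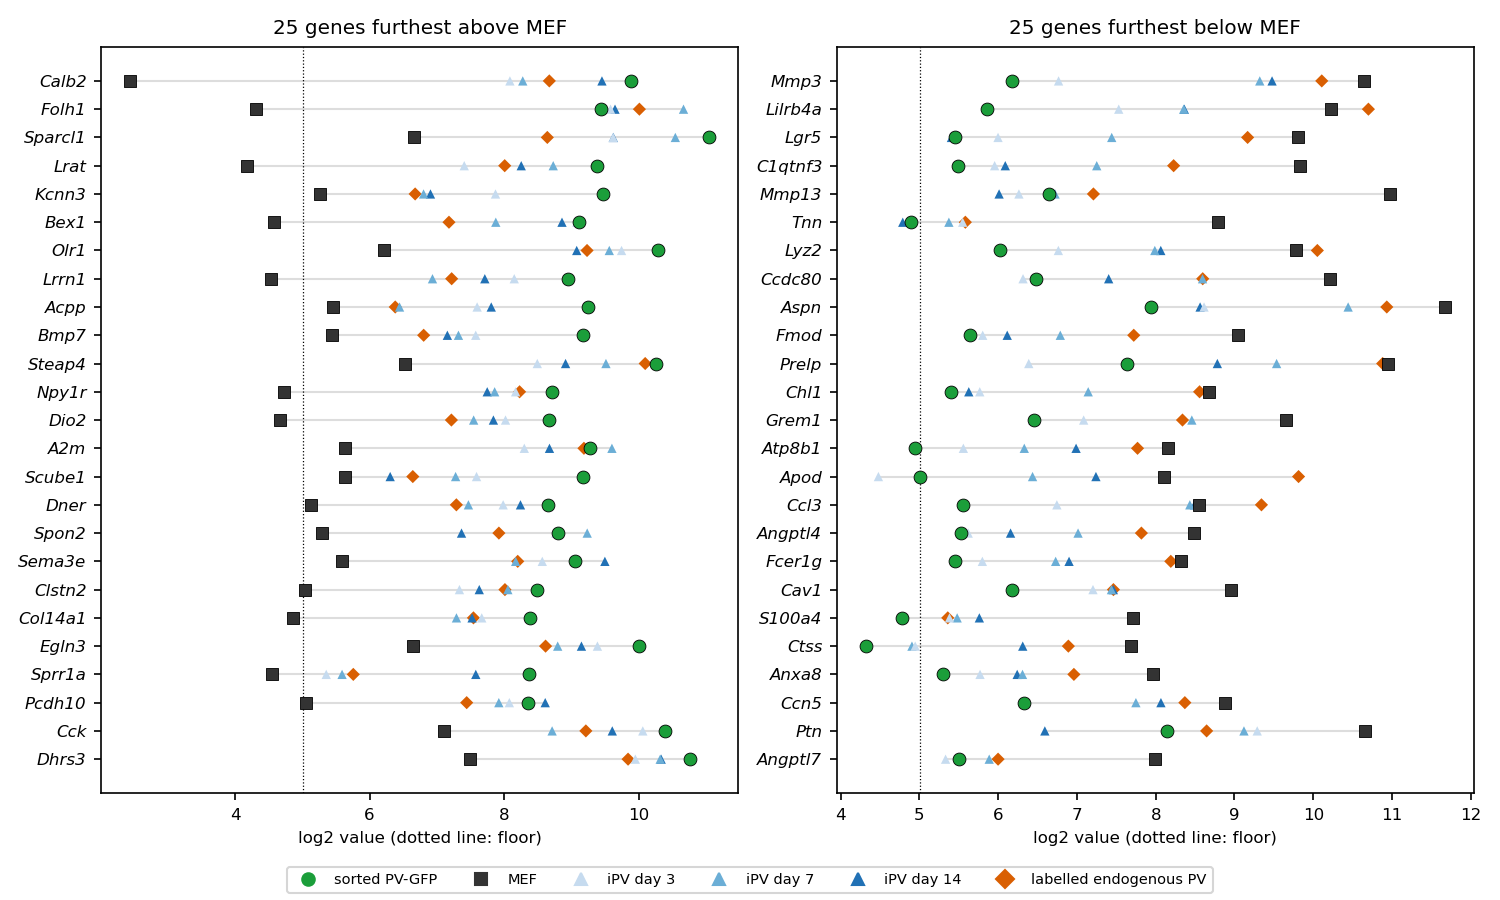
Genes furthest above MEF (left, 25) and furthest below it (right, 25) in sorted PV-GFP cells after flooring, with the log2 level (as deposited) on each of the 6 arrays. MEF is the lowest array for all 25 higher genes and the highest for 21 of the 25 lower genes.

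The 25 largest differences in the higher direction mixed genes of neurons with genes of other tissues. MEF was the lowest of the 6 arrays for all 25, and under the floor for 9, while sorted PV-GFP cells were the highest for 20. The rule behind them takes the size of the difference, so these counts describe the chosen genes and support nothing. Folh1, a glutamate carboxypeptidase (prostate-specific membrane antigen), had 9.44 in sorted cells and 4.32 in MEF (at least 21.5-fold), and the other arrays reached 9.58 to 10.67, above sorted cells. Sparcl1 (hevin), a secreted matrix protein that promotes synapse formation, had 11.05 in sorted cells and 6.65 in MEF (21.0-fold). Bex1, expressed in brain, had 9.12 in sorted cells and 4.58 in MEF (at least 17.2-fold). Dner, a transmembrane protein of neurons that binds Notch, had 8.65 in sorted cells and 5.13 in MEF, Clstn2, a postsynaptic cadherin-like protein, had 8.49 in sorted cells and 5.04 in MEF, and the protocadherin Pcdh10 had 8.35 in sorted cells and 5.05 in MEF. Others are known mainly from other settings. The oxidised lipoprotein receptor Olr1 had 10.28 in sorted cells and 6.22 in MEF (16.7-fold), the acid phosphatase Acpp, also known from pain-sensing neurons, 9.24 in sorted cells and 5.45 in MEF (13.9-fold), and the signalling protein Bmp7 9.17 in sorted cells and 5.44 in MEF (13.2-fold). For Acpp and Bmp7 sorted cells were well above the other arrays, which lay between 6.38 and 7.81 for Acpp and between 6.80 and 7.58 for Bmp7. Scube1, a secreted and surface protein, had 9.17 in sorted cells and 5.64 in MEF, and 6.31 to 7.59 on the other arrays. Sprr1a, known from regenerating axons as well as skin, had 8.37 in sorted cells and 4.54 in MEF (at least 10.2-fold). Dio2, which activates thyroid hormone, had 8.67 in sorted cells and 4.67 in MEF, but its other probe set was under the floor on both arrays.

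The 25 largest differences in the lower direction included matrix and secreted proteins, surface proteins and genes of macrophages such as Lyz2, Fcer1g and Ctss, which are described with the macrophage list. Sorted cells were the lowest of the 6 arrays for 16 of them and under the floor for 5. The matrix metalloproteinases Mmp3 (stromelysin) and Mmp13 (a collagenase) led. Mmp3 had 6.18 in sorted cells and 10.64 in MEF (22.1-fold lower), with 6.77, 9.32 and 9.48 in induced cells at 3, 7 and 14 days, so that unsorted cells at 14 days stood nearer to MEF. Mmp13 had 6.64 in sorted cells and 10.97 in MEF (20.1-fold lower), with 6.26, 6.72 and 6.01 at the same times, all low. Lgr5, a receptor for R-spondins that strengthens Wnt signalling, had 5.45 in sorted cells and 9.81 in MEF (20.6-fold lower). Its second probe set had 4.08 in sorted cells and 5.60 in MEF. The secreted protein C1qtnf3 had 5.49 in sorted cells and 9.83 in MEF (20.4-fold lower), and tenascin N (Tnn) had 4.89 in sorted cells and 8.79 in MEF (at least 13.7-fold lower). Of the small leucine-rich proteoglycans, which bind collagen fibrils, 3 were among the 25, with Aspn at 7.94 in sorted cells and 11.67 in MEF, Fmod at 5.64 in sorted cells and 9.05 in MEF and Prelp at 7.63 in sorted cells and 10.95 in MEF. The second probe set of Fmod was also lower, at 4.90 in sorted cells and 7.60 in MEF, while that of Prelp lay near the floor. Grem1, which binds and blocks bone morphogenetic proteins, had 6.46 in sorted cells and 9.66 in MEF (9.18-fold lower). The caveola protein Cav1 had 6.18 in sorted cells and 8.96 in MEF, against 7.20 to 7.46 on the other arrays. Chl1, a cell adhesion molecule of neurons, was also lower, with 5.40 in sorted cells and 8.68 in MEF.

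With the deposited values, several widely used fibroblast genes differed by less than the 0.50 of scatter between probe sets. Col1a1 had 12.39 in sorted cells and 12.31 in MEF, Col3a1 10.88 in sorted cells and 10.83 in MEF, fibronectin (Fn1) 12.93 in sorted cells and 13.14 in MEF, and smooth muscle actin (Acta2) 12.24 in sorted cells and 12.69 in MEF. Col1a2 had 11.62 in sorted cells and 12.10 in MEF, but its second probe set had 7.12 in sorted cells and 8.93 in MEF. Of 37 fibroblast and matrix genes, 10 were 2-fold lower (27.0%) and 2 were higher, with a median of -0.43. With housekeeping centring 15 were lower and 1 was higher, with a median of -0.74. Vimentin (Vim), the intermediate filament of fibroblasts, had 11.20 in sorted cells and 12.58 in MEF (2.61-fold lower), and its second probe set had 7.87 in sorted cells and 11.27 in MEF. S100a4 had 4.78 in sorted cells and 7.71 in MEF (at least 6.49-fold lower). The fibroblast marker Pdgfra was just past the threshold, at 10.54 in sorted cells and 11.57 in MEF (2.04-fold lower). The membrane protease Fap, another mark of activated fibroblasts, was higher, with 9.24 in sorted cells and 7.23 in MEF (4.03-fold), as was Ogn, with 11.65 in sorted cells and 10.58 in MEF. Of 24 collagen genes, Col6a3 (7.56 in sorted cells and 9.67 in MEF) and Col12a1 (11.44 in sorted cells and 12.68 in MEF) were lower. Col14a1 was higher, with 8.39 in sorted cells and 4.86 in MEF (at least 10.4-fold). With housekeeping centring 7 collagen genes were lower and 1 was higher. Of 25 matrix proteases and inhibitors, 5 were lower and 2 were higher, the higher ones being the gelatinase Mmp9 (8.05 in sorted cells and 5.76 in MEF) and the aggrecanase Adamts4 (8.58 in sorted cells and 6.91 in MEF). Desmin (Des), the intermediate filament of muscle, had 8.42 in sorted cells and 5.25 in MEF (8.99-fold higher), the 1 gene of 19 on the smooth muscle and myofibroblast list that was 2-fold higher, while 2 were lower.

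Mitosis genes were the list with the highest share of lower members. Of 29, 19 were 2-fold lower (65.5%) and 0 were higher, all 29 differences were below 0, and the median was -1.25. The kinetochore motor Cenpe had 6.04 in sorted cells and 7.96 in MEF (3.78-fold lower), Nuf2, of the kinetochore, had 6.10 in sorted cells and 7.99 in MEF, and the spindle midzone protein Prc1 had 6.34 in sorted cells and 8.22 in MEF. Mki67, the usual proliferation marker, had 7.77 in sorted cells and 9.31 in MEF (2.91-fold lower), so it was still well above the floor. The median level of the list was 6.03 in sorted cells and 7.00 in MEF, and 5.87, 7.25 and 5.84 in unsorted cells at 3, 7 and 14 days. Unsorted cells at 7 days thus stood with MEF, and the other induced arrays stood below. Of 29 DNA replication genes, 6 were lower (20.7%) and 0 were higher, with a median of -0.55, among them the primase Prim1 with 5.22 in sorted cells and 6.82 in MEF and the helicase subunits Mcm3, Mcm4 and Mcm6 with differences between -1.10 and -1.02. Several of these genes were close to the floor in sorted cells, and with the floor at the 75th percentile 10 mitosis genes and 1 replication gene stayed 2-fold lower. The cell cycle inhibitor Cdkn1a (p21) had 11.35 in sorted cells and 10.43 in MEF, a difference of 0.91. On the p53 response list, 2 of 22 genes were higher (9.09%), a share near the 6.35% of all genes with a mean above the floor. They were Sesn2 (7.93 in sorted cells and 6.38 in MEF) and Perp (7.76 in sorted cells and 6.52 in MEF).

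**Figure D4:**
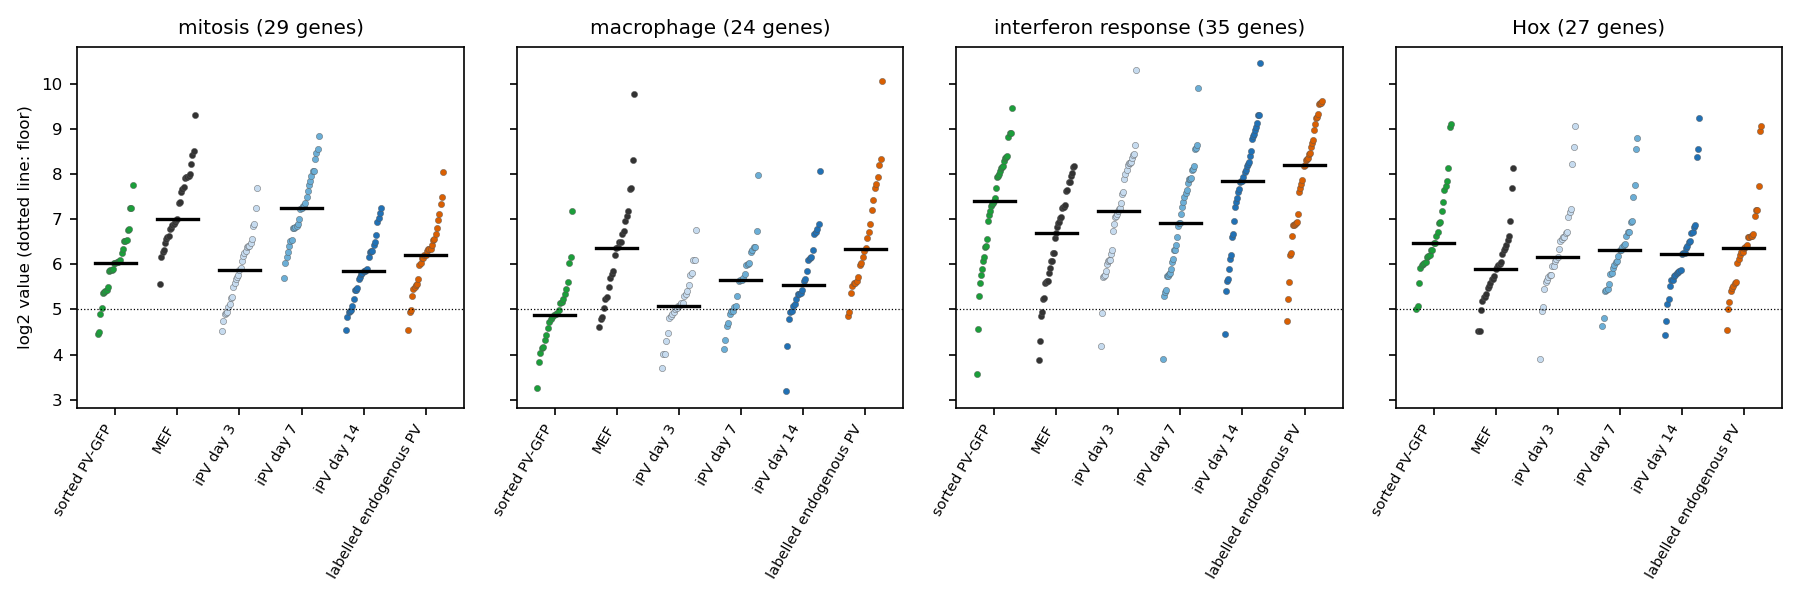
Log2 level (as deposited) of the members of 4 gene lists on each of the 6 arrays, 1 point per gene and array in order of level, with a short line at the median of the array and the floor dotted. The mitosis members lie lower on the sorted PV-GFP array (median 6.03) than on the MEF array (median 7.00), and the interferon members lie higher (medians 7.40 and 6.69).

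Interferons are secreted on virus infection and switch on antiviral genes. Of 35 interferon response genes, 13 were 2-fold higher (37.1%) and 0 were lower, with a median of 0.64. The chemokine Cxcl10 had 8.17 in sorted cells and 5.92 in MEF (4.76-fold). Usp18, which damps interferon signalling, had 8.92 in sorted cells and 6.69 in MEF (4.68-fold). Oasl1 had 6.96 in sorted cells and 4.95 in MEF (at least 3.85-fold), the transcription factor Irf7 had 8.35 in sorted cells and 6.58 in MEF (3.41-fold), and the antiviral enzyme Rsad2 (viperin) had 7.18 in sorted cells and 5.61 in MEF (2.98-fold). For these 5 genes MEF was the lowest array, and the array labelled endogenous or unsorted cells at 14 days were above sorted cells. The remaining higher members were Bst2, Ifit1, Cmpk2, Mx2, Igtp, Oasl2, Oas2 and Iigp1, with differences between 1.06 and 1.51. Isg15 differed by 0.87, with 8.13 in sorted cells and 7.26 in MEF. The count of 13 was 10 with quantile normalization, 9 with housekeeping centring and 7 with the higher floor. The labels give adenovirus infection for every sample in the same words, so whether MEF received a virus is not known here, and its part in this difference was not tested. Members of the Oas, Ifit and Igtp families have close relatives whose transcripts the probes may share.

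The promoters of 4 of the 5 leading genes are shown because interferon-stimulated response elements carry GAAA repeated with 2 bases between the copies. The sequences are from RefSeq, build GRCm38.p6, each from 250 bases before to 50 bases after the start site and written in the direction of the gene, with any match to that repeat on either strand in capitals. Cxcl10 lies at chr5:92348840-92349139 on the minus strand, Oasl1 at chr5:114922990-114923289 on the plus strand, Irf7 at chr7:141266375-141266674 on the minus strand and Rsad2 at chr12:26456403-26456702 on the minus strand.
Cxcl10: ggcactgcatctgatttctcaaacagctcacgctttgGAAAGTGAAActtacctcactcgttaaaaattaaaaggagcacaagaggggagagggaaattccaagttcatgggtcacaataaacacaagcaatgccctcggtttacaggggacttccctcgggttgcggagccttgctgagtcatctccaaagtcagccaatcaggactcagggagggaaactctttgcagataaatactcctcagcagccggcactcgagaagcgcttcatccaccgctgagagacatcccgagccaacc
Oasl1: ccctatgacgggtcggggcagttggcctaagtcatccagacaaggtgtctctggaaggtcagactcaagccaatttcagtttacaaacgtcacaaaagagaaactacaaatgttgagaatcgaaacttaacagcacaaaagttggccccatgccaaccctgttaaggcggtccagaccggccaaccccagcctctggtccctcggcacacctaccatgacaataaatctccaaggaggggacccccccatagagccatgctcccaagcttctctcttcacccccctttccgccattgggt
Irf7: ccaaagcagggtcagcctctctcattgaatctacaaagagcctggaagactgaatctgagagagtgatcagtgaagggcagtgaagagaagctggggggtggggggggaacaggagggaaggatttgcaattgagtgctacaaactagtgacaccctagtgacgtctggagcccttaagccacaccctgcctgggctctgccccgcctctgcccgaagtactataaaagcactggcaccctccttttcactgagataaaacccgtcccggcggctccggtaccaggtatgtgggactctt
Rsad2: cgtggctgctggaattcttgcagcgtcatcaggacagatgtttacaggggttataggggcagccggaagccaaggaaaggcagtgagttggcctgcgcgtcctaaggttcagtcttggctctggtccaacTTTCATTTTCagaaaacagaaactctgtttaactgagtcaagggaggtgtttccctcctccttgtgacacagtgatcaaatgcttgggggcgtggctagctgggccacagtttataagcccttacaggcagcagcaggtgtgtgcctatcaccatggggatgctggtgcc
Cxcl10 held a match beginning 213 bases before the start site, and Rsad2 held one on the opposite strand at 120 bases before it. The windows of Oasl1 and Irf7 do not hold these letters. The motif occurred in 16 of the 26 list genes with a promoter sequence (61.5%) and in 3.99% of all 27025 genes with one. Interferon response genes are known for such elements, so this share describes the list and not these arrays. Among the 9 list genes that were 2-fold higher, 5 held the motif (55.6%), a share no higher than that of the list. Here too a match describes the letters and not binding.

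Inflammatory genes went both ways. Of 35 chemokine and inflammatory cytokine genes, 7 were higher and 5 were lower. Cxcl13, a B-cell chemokine, had 8.97 in sorted cells and 5.84 in MEF (8.74-fold), Ccl5 had 8.14 in sorted cells and 5.88 in MEF (4.80-fold), and Il6 had 7.73 in sorted cells and 6.59 in MEF. Cxcl14 had 8.21 in sorted cells and 10.64 in MEF (5.37-fold lower). Of 22 complement and acute-phase genes, 7 were higher (31.8%) and 2 were lower, with a median of 0.02. The metalloreductase Steap4 had 10.25 in sorted cells and 6.53 in MEF (13.2-fold), serum amyloid Saa3 had 12.45 in sorted cells and 10.12 in MEF (5.02-fold), lipocalin Lcn2 had 11.31 in sorted cells and 8.98 in MEF (5.04-fold), and haptoglobin (Hp) had 7.39 in sorted cells and 5.05 in MEF (5.08-fold). For Saa3, Lcn2 and Hp the array labelled endogenous was the highest of the 6, at 13.37, 12.18 and 9.40.

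The 2 complement genes that were lower, C1qb and C3ar1, belong to macrophages. Of 24 macrophage genes, 11 were 2-fold lower in sorted cells (45.8%) and 0 were higher, with a median of -0.86. Lyz2 (lysozyme) had 6.03 in sorted cells and 9.78 in MEF (13.5-fold lower), Fcer1g had 5.45 in sorted cells and 8.32 in MEF (7.30-fold lower), and the protease Ctss had 4.32 in sorted cells and 7.69 in MEF (at least 6.40-fold lower). Adgre1, the defining mouse macrophage marker, had 3.84 in sorted cells and 7.06 in MEF. Under the floor were 15 of the 24 genes in sorted cells and 3 of the 24 in MEF. Summed on the linear scale, the 24 genes came to 869 in sorted cells and 3041 in MEF, to 933, 1422 and 1542 in unsorted cells at 3, 7 and 14 days, and to 3691 on the array labelled endogenous. Sorted cells were thus the lowest of the 6 arrays and the array labelled endogenous the highest. In RNA of a bulk sample, fewer cells of a type and less RNA per cell cannot be told apart. Macrophages also express genes outside that list, such as Ccl3 (5.55 in sorted cells and 8.55 in MEF) and Ccl9 (6.12 in sorted cells and 7.98 in MEF). Others are Mmp12 (5.94 in sorted cells and 7.51 in MEF) and Lilrb4a (5.86 in sorted cells and 10.23 in MEF). The part of macrophage RNA in these differences was not tested. Markers of other cell types differed less. The endothelial list had 1 of 12 genes lower (Flt1, 5.37 in sorted cells and 7.85 in MEF) with Pecam1 at 5.16 in sorted cells and 4.76 in MEF, and the epithelial (11 genes) and skeletal muscle (15 genes) lists had 0 genes 2-fold different. On the pericyte list Rgs5 was higher, with 8.21 in sorted cells and 5.37 in MEF (7.14-fold), but its second probe set had 5.11 in sorted cells and 4.53 in MEF. On the oligodendrocyte list Cldn11 was higher (7.52 in sorted cells and 5.60 in MEF), and on the Schwann cell and neural crest list Gfra3 (6.65 in sorted cells and 5.06 in MEF).

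**Figure D5:**
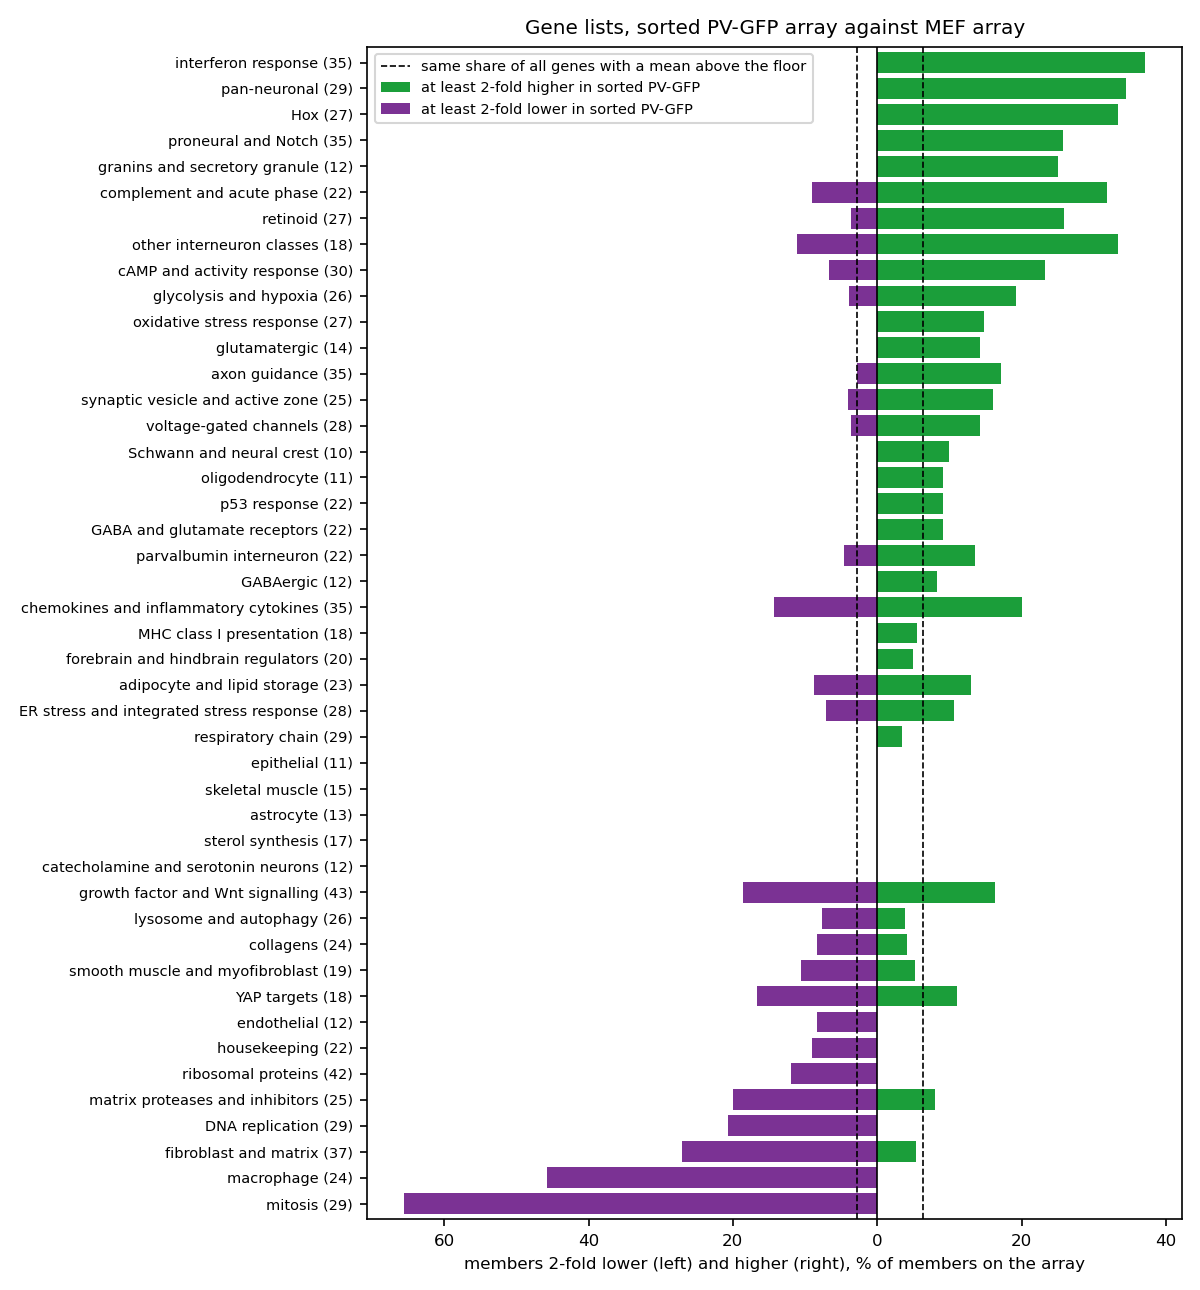
Share of the members on the array (horizontal axis, %) that were at least 2-fold higher (right) or lower (left) in sorted PV-GFP cells than in MEF, for the lists with at least 10 members, with the number of members after each name and dashed lines at the shares among the 12600 genes with a mean above the floor (6.35% higher and 2.84% lower). Bars also count members under the floor, so the lines are too strict for lists with many such members. Over all 22180 genes the shares are 3.67% higher and 1.64% lower. Mitosis (65.5%) and macrophage genes (45.8%) have the highest lower shares, and interferon response genes (37.1%) the highest higher share.

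Signalling genes were split. Of 43 growth factor and Wnt pathway genes, 7 were higher and 8 were lower, with a median of -0.04. Angpt1, a ligand of the endothelial receptor Tek, had 8.69 in sorted cells and 5.56 in MEF (8.78-fold). It was higher still in induced cells at 7 days (9.04) and on the array labelled endogenous (9.14). The second probe set of Angpt1 was under the floor in sorted cells and in MEF. The insulin-like growth factor binding protein Igfbp5 had 11.00 in sorted cells and 7.94 in MEF (8.37-fold). In the transforming growth factor family Tgfb2 was higher (9.36 in sorted cells and 7.34 in MEF) and Tgfb3 was lower (8.16 in sorted cells and 9.99 in MEF). In the Wnt pathway the ligand Wnt4 was higher (6.92 in sorted cells and 5.41 in MEF) and the antagonist Sfrp2 was lower (7.23 in sorted cells and 9.27 in MEF). Of 18 targets of the growth regulator YAP, 2 were higher and 3 were lower, led by Ankrd1 with 10.52 in sorted cells and 7.50 in MEF (8.10-fold) and by Nt5e with 5.66 in sorted cells and 8.08 in MEF (5.33-fold lower). Of 30 cAMP and activity response genes, 7 were higher (23.3%) and 2 were lower, among them the phosphodiesterase Pde7b (9.55 in sorted cells and 7.08 in MEF), the kinase Sik1 (8.97 in sorted cells and 6.95 in MEF) and the nuclear receptor Nr4a3 (7.02 in sorted cells and 4.97 in MEF). The median of this list, 0.22, changed sign with housekeeping centring.

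Metabolic genes differed in a few members. Of 26 glycolysis and hypoxia genes, 5 were higher (19.2%) and 1 was lower, with a median of 0.47. Egln3, an oxygen sensor that is itself induced by low oxygen, had 10.01 in sorted cells and 6.65 in MEF (10.2-fold), hexokinase Hk2 had 7.47 in sorted cells and 6.05 in MEF, and Vegfa had 10.05 in sorted cells and 8.82 in MEF. Txnip, a glucose-responsive inhibitor of thioredoxin, was lower, with 10.20 in sorted cells and 11.75 in MEF, and stood far lower still at 5.19 in induced cells at 3 days. Of 29 respiratory chain genes, 1 was higher (Ndufa4, 10.38 in sorted cells and 9.27 in MEF). That share, 3.45%, was below the 6.35% of all genes with a mean above the floor. On the ribosomal protein list, which was added after values were seen, 5 of 42 genes were 2-fold lower and 0 were higher, with a median of -0.41. Those 5 were Rps18, Rpsa, Rpl13, Rps4x and Rplp0, with differences between -1.74 and -1.02. Ribosomal protein genes have many processed copies that probes may share, and a second probe set of Rpsa had 5.78 in sorted cells and 5.75 in MEF. The second probe set of Rplp0 had 5.42 in sorted cells and 5.64 in MEF, and the other probe sets of Rps18 differed by 0.00 after flooring. That of Rpl13 was lower as well, with 5.70 in sorted cells and 7.06 in MEF. Among all 42 genes, 33 had a difference below 0 and 4 had one above it. The count of 5 was 2 with the mean of all probe sets and 12 with housekeeping centring.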

How the data were processed

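Total RNA of 6 mouse samples was hybridised to Affymetrix arrays, 1 per sample. The authors deposited log2 values, a scale read from the values themselves. The submitters' processing notes name Affymetrix Expression Console. Its version, its summarisation and any build were not given in the sources used here. Of 41345 probe sets, 5333 numbered below the first annotated one were taken as controls and left out, on which the floor depends; 23521 had 1 symbol in the platform annotation, 1814 several and 10677 none. Entrez identifiers of 23328 were found in a RefSeq table (GRCm38.p6). Each of 22180 genes was represented by its brightest probe set (1082 had more than 1), floored at 5.01, and sorted PV-GFP minus MEF was counted at 2-fold, with Python 3.11.15, numpy 2.4.6 and pandas 2.3.3. The 48 lists had 1184 entries, of which 108 are not analysed here. Counting was checked on simulated data. The named genes were the 25 with the largest difference in each direction, with every probe set above the floor in the same direction and predicted genes left out, up to 6 members of each list and a preset list; the text gives a selection, and the other list members it names were chosen after their values were seen. The members and lists were chosen with earlier results of these data known. Alternatives were quantile normalization, housekeeping centring, the mean of all probe sets, no floor, a higher floor, 4-fold, and only genes with a mean above the floor. The number of arrays limits the precision.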

Additional observations from a re-analysis of the deposited data

Results flagged for a closer look

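Probe sets that name no single gene were left out of the comparison, and some of them differed between the arrays. Of 1814 probe sets with several symbols, 62 were at least 2-fold higher in sorted PV-GFP cells than in MEF (3.42%) and 31 were at least 2-fold lower (1.71%), with differences from -2.23 to 3.59. Of 10677 probe sets with no symbol here, 225 were 2-fold higher (2.11%) and 205 were 2-fold lower (1.92%), with differences from -3.07 to 8.19. They were flagged because they lie outside the measurement the comparison used. With 1 array per group these counts have no replicate check.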

How the results depend on the processing

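With 814 genes higher and 364 lower at 2-fold, housekeeping centring gave 439 higher and 782 lower, the floor at the 75th percentile gave 438 and 202, and the 4-fold threshold gave 140 and 50. Without a floor 612 were lower. Of 192 named genes past 2-fold, 173 stayed past it in the same direction with housekeeping centring and 185 with quantile normalization. With the mean of all probe sets 183 did so, and with the higher floor 147. Under these settings 0 changed direction, but this count is no check of stability. A higher floor can only shrink a difference, and housekeeping centring shifts all genes by the same amount, smaller than 2-fold. Neither could reverse these genes. The mean of all probe sets cannot change a gene with 1 probe set. Genes named for the size of their difference already had every probe set above the floor in the same direction. With the mean of all probe sets, which include probe sets under the floor, Kcnma1, Hoxb5, Pole and Dusp6 were at 0.35, 0.49, -0.26 and -0.31. With the higher floor, where fewer genes have room to differ, the list medians were -0.42 for mitosis (-1.25 otherwise), 0.00 for macrophage (-0.86), Hox (0.87), granin (0.59) and DNA replication genes (-0.55). Over genes with a mean above the floor alone, they were 0.72 for voltage-gated channels, 0.52 for GABA and glutamate receptors and -0.81 for endothelial genes (0.00 otherwise), and 0.72 for complement and acute phase genes (0.02). Medians that changed sign with housekeeping centring were MHC class I presentation (-0.17), cAMP and activity response (-0.046), sterol synthesis (-0.29), respiratory chain (-0.0051), pericyte (-0.14) and sex-linked genes (-0.30). The housekeeping median (-0.0082) also changed sign, but that centring itself sets it near 0. With quantile normalization, sterol synthesis (-0.13) and sex-linked genes (-0.077) did so, and with the higher floor sex-linked genes (-0.16). The cause was not tested. No paired analysis was possible because each group had 1 array and the labels carry no replicate numbers, and for the same reason no replicate could be left out.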

Other observations

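Lipid genes differed singly. Of 23 adipocyte and lipid storage genes, 3 were 2-fold higher and 2 were lower. Dgat2, which makes triglyceride, had 7.03 in sorted PV-GFP cells and 4.83 in MEF (at least 4.06-fold), the lipase Pnpla2 had 7.98 in sorted cells and 6.62 in MEF, and the fatty acid binding protein Fabp4 had 9.66 in sorted cells and 8.33 in MEF. The lipase inhibitor Angptl4 had 5.53 in sorted cells and 8.49 in MEF (7.79-fold lower), and the fatty acid transporter Cd36 had 5.63 in sorted cells and 7.34 in MEF. Of 17 sterol synthesis genes 0 were 2-fold different. Of 27 oxidative stress genes, 4 were higher and 0 were lower, led by the monooxygenase Fmo2 with 8.34 in sorted cells and 5.44 in MEF (7.45-fold), which reached 10.42 in unsorted cells at 14 days.

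Stress and amino acid genes were split. Of 28 genes of the ER stress and integrated stress response list, 3 were higher and 2 were lower. The amino acid transporter Slc7a5 had 9.69 in sorted cells and 8.16 in MEF, and Atf5 had 8.35 in sorted cells and 7.16 in MEF, while the serine synthesis enzymes Psat1 (6.07 in sorted cells and 7.66 in MEF) and Phgdh (5.10 in sorted cells and 6.11 in MEF) were lower. Of 26 lysosome genes, 1 was higher and 2 were lower. Of 18 genes of MHC class I presentation, H2-Ab1, which belongs to class II, was the 1 gene 2-fold higher, with 7.38 in sorted cells and 5.96 in MEF. Both arrays carried Xist (9.77 in sorted cells and 8.95 in MEF) and the Y-linked Uty (6.40 in sorted cells and 7.03 in MEF).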
